A study of Mus musculus with 3 samples.

Results

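The 10 genes described here encode glucose transporters of the SLC2A family and proteins that catalyse or set the pace of the early, committed reactions of glycolysis. They are the glucose transporter genes Slc2a1, Slc2a3 and Slc2a6, the hexokinase genes Hk1, Hk2 and Hk3, the phosphofructokinase-1 subunit genes Pfkl, Pfkm and Pfkp, and Pfkfb3, which encodes the enzyme that makes and breaks down the activator of phosphofructokinase-1. They were chosen by name and not by a rule on their values, but with earlier results of these data known. All 10 were found among the 55536 annotated genes, of which 22028 are protein-coding. The question put to the data was which isoenzyme holds the largest share of each step. To answer it, each member was set beside every listed gene of its own step: 12 SLC2A transporter genes, 5 hexokinase genes, 3 phosphofructokinase-1 genes and 4 genes of the bifunctional enzyme, 24 genes in all.

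The data come from total RNA sequencing, after removal of ribosomal RNA, of the cytosolic fraction of macrophages grown from the bone marrow of C57BL/6J mice. Lipid A, the membrane anchor of bacterial lipopolysaccharide and the ligand of Toll-like receptor 4, was given at 100 ng/ml for 12 h. It was then washed out for 12 h and given again at 100 ng/ml for 20 min before harvest. All 3 libraries belong to this 1 group and are numbered as biological replicates 1, 2 and 3, with a single donor identifier, while age and sex are not given. No untreated, singly stimulated or nuclear library was analysed here, so a level below cannot be read as a response to Lipid A. Every ± is an SD over the 3 libraries (n = 3) and may be in part technical.

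Glucose enters cells through SLC2A (GLUT) transporters and is trapped inside by hexokinases, which convert it to glucose 6-phosphate, the shared entry to glycolysis, the pentose phosphate pathway and glycogen. Phosphofructokinase-1 then commits the sugar to glycolysis, and it is switched on by fructose 2,6-bisphosphate, the product of the PFK-2 activity of the PFKFB enzymes. Macrophages activated through Toll-like receptor 4 are known for a high glycolytic rate, and the isoenzymes of each step differ in location, affinity and regulation. Levels are given as TPM, a length-corrected share of all RNA in a library, which allows genes to be compared with each other.

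The libraries held 32055937, 43616634 and 47864978 expected counts on annotated genes in replicates 1, 2 and 3. Protein-coding genes took 32.7%, 27.4% and 27.8% of all TPM. All 10 listed macrophage markers were at or above 1 TPM in every library, with summed levels of 4710 to 5480 TPM. Of the 10 neutrophil markers 3 reached 1 TPM in every library, with sums of 10.7 to 18.9 TPM and with Ly6g and Retnlg at 0 counts. Of the 6 platelet markers only Pf4 reached 1 TPM in every library, and none of the 7 erythroid, 6 skeletal muscle or 6 lymphocyte markers did, with sums of at most 0.13, 0.93 and 0.22 TPM. Of the 6 fibroblast and endothelial markers only Kdr did (sums 2.29 to 9.63 TPM).

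The levels of the 10 genes spanned from about 1 to over 100 TPM. Hk3 stood highest, at 115 ± 24.2 TPM, which placed it at rank 381 among the protein-coding genes, above 98.3% of them. Slc2a6 (42.5 ± 16.8 TPM), Hk1 (36.1 ± 8.17 TPM), Pfkfb3 (20.3 ± 5.44 TPM), Hk2 (15.4 ± 4.08 TPM) and Pfkp (8.78 ± 2.06 TPM) followed. Pfkl (3.99 ± 0.79 TPM), Slc2a1 (2.21 ± 0.729 TPM), Pfkm (1.48 ± 0.113 TPM) and Slc2a3 (1.22 ± 0.355 TPM) formed the low end. In this bulk RNA, a gene expressed in fewer cells and a gene with less RNA per cell cannot be told apart. The order of the 10 genes was the same in 3 of 3 libraries of the gene tables, the first of the 2 deposited quantifications. Some neighbours in it were nonetheless within their spread: Slc2a6 exceeded Hk1 by 1.41, 1.01 and 1.03 times in replicates 1, 2 and 3, and Pfkm exceeded Slc2a3 by 1.73, 1.04 and 1.08 times. Pfkfb3 and Hk2 were also close, with ratios of 1.75, 1.27 and 1.02. In the second quantification, made per transcript and summed per gene, 3 of the neighbours changed places in 2 of 3 libraries: the ratio of Slc2a6 to Hk1 was 1.26, 0.912 and 0.916, that of Hk2 to Pfkp 0.873, 0.792 and 1.93, and that of Pfkm to Slc2a3 1.5, 0.723 and 0.708.

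**Figure D1:**
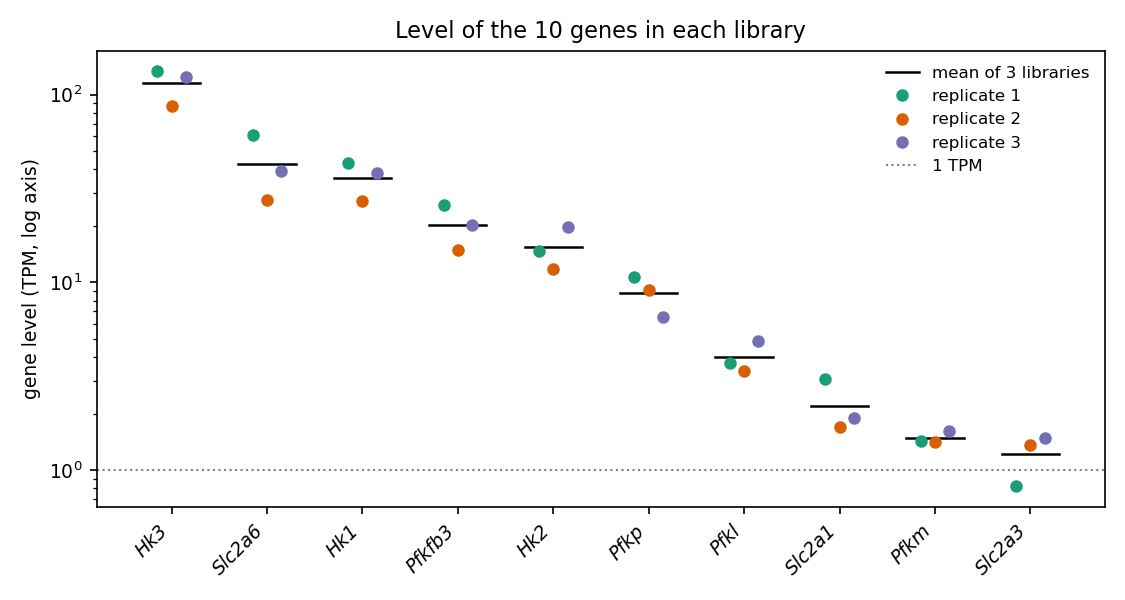
TPM of each of the 10 genes (horizontal axis, ordered by mean) on a log axis, with 1 point per library, a bar for the mean of the 3 libraries and a dotted line at 1 TPM. Hk3 is highest in every library, and Slc2a3 in replicate 1, at 0.82 TPM, is the only point under the line.

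At least 1 TPM in every library was reached by 9 of the 10 members. The same held for 41.3% of all protein-coding genes. Slc2a3 was the exception because of replicate 1. At least 2 TPM was reached by 7 members, against 36.3% of coding genes. In the second quantification 7 members reached 1 TPM in every library, against 36.2%. With 1 library group no test between conditions exists, and an exact sign-flip test over 3 libraries cannot give a two-sided p below 0.25, so the comparisons below rest on values per library and on their order.

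Among the genes of the SLC2A transporter family, Slc2a6 took the largest share of the RNA, which says nothing of its part in glucose uptake. Coordinates here and below are those of mm10. Slc2a6 (ENSMUSG00000036067.12, chr2:27021363-27027998, minus strand) encodes GLUT6, a transporter placed mainly on lysosomes in macrophages rather than at the cell surface. It stood at 60.67, 27.53 and 39.32 TPM in replicates 1, 2 and 3, from 5812, 4227 and 6139 expected counts. Replicate 1 was the highest and replicate 2 the lowest, 2.2 times apart, the widest gap of the 10 genes. Its share of the summed TPM of the 12 transporter genes was 83.3%, 67.8% and 71.5% (mean 74.2% ± 8.08, n = 3).

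Slc2a1 (ENSMUSG00000028645.11, chr4:119108711-119137983, plus strand) encodes GLUT1, the main basal glucose transporter of the plasma membrane in most cells. It stood at 3.04, 1.69 and 1.89 TPM, from 443, 400 and 471 counts. Replicate 1 was again the highest, and the other two libraries were close to each other. Slc2a6 exceeded it by 20.0, 16.3 and 20.8 times, a ratio that held within a narrow range (log2 4.24 ± 0.189, n = 3). The share of Slc2a1 in the transporter total was 3.92% ± 0.422 (n = 3).

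Slc2a3 (ENSMUSG00000003153.10, chr6:122727809-122801640, minus strand) encodes GLUT3, a transporter with a high affinity for glucose that is typical of neurons and also found in leukocytes. It stood at 0.82, 1.36 and 1.49 TPM, from 125, 283 and 362 counts. The 125 counts of replicate 1 carry an exact 95% Poisson interval of 104 to 149, which covers counting error only. Replicate 1 was the lowest, the reverse of Slc2a1 and Slc2a6, so that Slc2a1 exceeded Slc2a3 by 3.71 times there and by 1.24 and 1.27 times in replicates 2 and 3. The direction turned in replicates 2 and 3 of the second quantification, with ratios of 2.54, 0.813 and 0.898.

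Other transporters stood between Slc2a6 and the surface transporters. Slc2a9, whose product GLUT9 is known as a urate transporter, was at 5.01, 5.52 and 7.84 TPM. Slc2a8, which encodes the intracellular GLUT8, was at 3.32, 4.47 and 4.41 TPM. Both exceeded Slc2a1 in 3 of 3 libraries, Slc2a9 by 1.65, 3.27 and 4.15 times and Slc2a8 by 1.09, 2.64 and 2.33 times. Slc2a6 exceeded Slc2a9, the next gene, by 12.1, 4.99 and 5.02 times (log2 2.75 ± 0.737, n = 3), with replicate 1 apart from the other libraries. Slc2a4, the insulin-responsive transporter gene of muscle and fat, reached 0.02 TPM at most, and Slc2a7, Slc2a10 and Slc2a13 had 0 counts in every library, which allows at most 0.0698 TPM for Slc2a7, 0.0346 TPM for Slc2a10 and 0.0214 TPM for Slc2a13 at 3 counts per library.

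Hk3 (ENSMUSG00000025877.14, chr13:55005985-55021385, minus strand) was the leading hexokinase gene in every library. Hexokinase 3 is a low-Km enzyme typical of myeloid cells that is inhibited by high glucose and, unlike hexokinases 1 and 2, lacks the start peptide that anchors them to mitochondria. Hk3 stood at 133, 87.48 and 124.3 TPM in replicates 1, 2 and 3, from 18187, 19062 and 27845 counts. Replicate 2 was the lowest, and the highest library stood 1.52 times above it. The listed markers of neutrophils, cells that also express Hk3, summed to 10.7, 13.1 and 18.9 TPM. The part of such cells in the level of Hk3 was not tested.

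Hk1 (ENSMUSG00000037012.18, chr10:62268855-62379908, minus strand) encodes the widely expressed housekeeping isoenzyme, which is known as mitochondria-bound. Its transcripts differ at the coding start, as described below, so this trait need not hold for all of its RNA. Hk1 stood at 43.12, 27.13 and 38.07 TPM, with 6181, 6705 and 9588 counts. Hk2 (ENSMUSG00000000628.10, chr6:82725025-82774454, minus strand) encodes the inducible isoenzyme of muscle, fat and proliferating cells. It stood at 14.77, 11.75 and 19.83 TPM, from 2828, 3511 and 6012 counts. The values of the 3 genes did not overlap: the lowest library of Hk3 lay above the highest of Hk1, and the lowest of Hk1 above the highest of Hk2.

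The shares within the step were steadier than the levels. Hk3 took 69.7%, 69.2% and 68.2% of the hexokinase TPM (mean 69.0% ± 0.744), Hk1 took 22.6%, 21.5% and 20.9% (21.7% ± 0.862) and Hk2 took 7.74%, 9.3% and 10.9% (9.31% ± 1.57; n = 3 each). Hk3 exceeded Hk1 by 3.08, 3.22 and 3.27 times (log2 1.67 ± 0.0431, n = 3), the smallest spread of such a ratio among the 4 steps. Hkdc1, a hexokinase-like gene, had 0 counts in every library, which allows at most 0.0443 TPM.

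**Figure D2:**
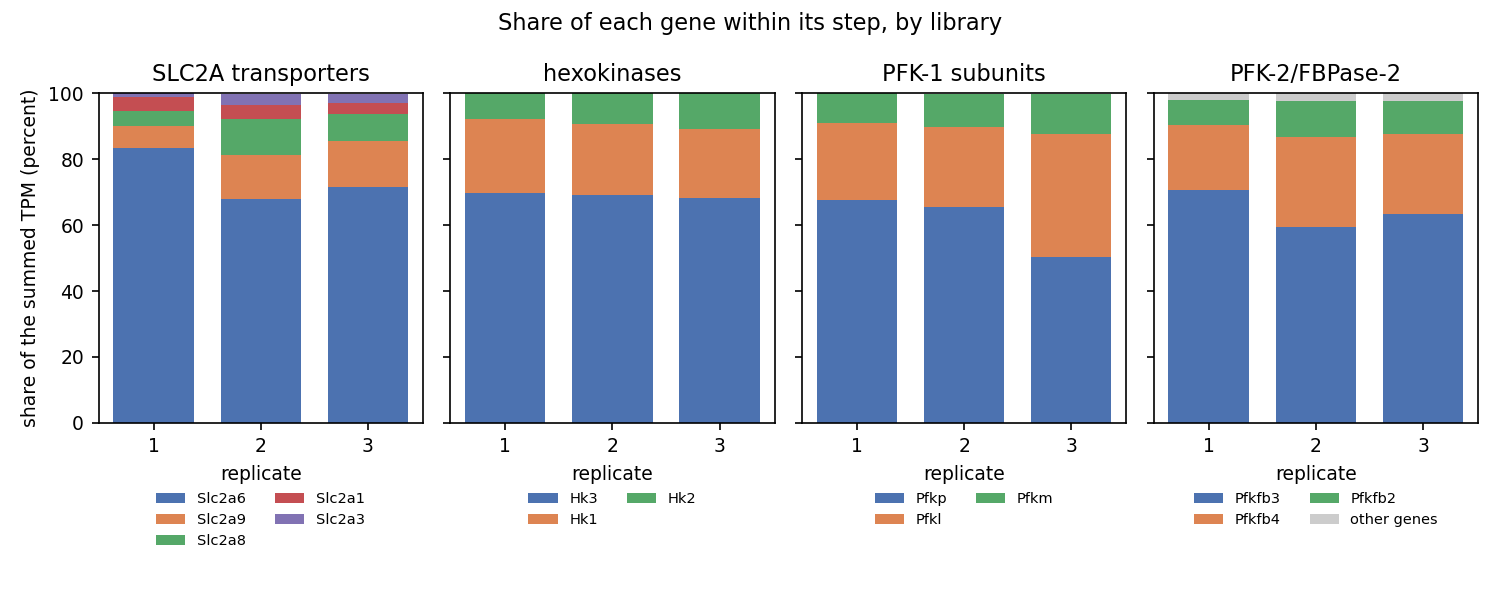
Share of the summed TPM (vertical axis, percent) of each gene within its step, as stacked bars with 1 bar per library. Slc2a6, Hk3, Pfkp and Pfkfb3 form the largest block in every bar, Hk3 between 68.2% and 69.7%, while the block of Pfkp is smallest, at 50.3%, in replicate 3.

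The 3 phosphofructokinase-1 subunits assemble into tetramers of any mix, named for liver, muscle and platelet. They are encoded by Pfkl (ENSMUSG00000020277.10, chr10:77986947-78010083, minus strand), Pfkm (ENSMUSG00000033065.14, chr15:98092589-98132451, plus strand) and Pfkp (ENSMUSG00000021196.14, chr13:6579768-6648777, minus strand). Pfkp was the highest in every library, at 10.64, 9.15 and 6.56 TPM, from 1590, 2380 and 1613 counts. Pfkl followed at 3.7, 3.38 and 4.88 TPM, with 633, 925 and 1406 counts, and Pfkm was lowest at 1.42, 1.41 and 1.61 TPM, with 187, 299 and 350 counts. Pfkp was lowest in replicate 3, where Pfkl was highest.

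The lead of Pfkp therefore varied: it exceeded Pfkl by 2.88 and 2.71 times in replicates 1 and 2 and by 1.34 times in replicate 3 (log2 1.13 ± 0.61, n = 3). Its share of the step was 67.5%, 65.6% and 50.3% (mean 61.1% ± 9.46, n = 3), that of Pfkl 28.4% ± 7.82 and that of Pfkm 10.5% ± 1.69. Without replicate 3 the log2 ratio was 1.48. The order Pfkp, Pfkl, Pfkm held in 3 of 3 libraries. Of the platelet markers, Pf4 stood at 82.8 ± 6.01 TPM and the others at 0.45 TPM or less in every library, and no skeletal muscle marker exceeded 0.88 TPM in any. Their part in the levels of Pfkp and Pfkm was not tested.

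Pfkp overlaps the oppositely oriented gene Pitrm1 (7.82 TPM in the mean) over 748 nt, and Pfkm overlaps the opposite gene Senp1 (3.71 TPM) over 1156 nt. The strand setting of the counting is not given in the sources used here, and reads inside these stretches cannot be told apart without it. The other overlapping genes were at most at 0.283 TPM in the mean. Related genes of a step can also share reads. The longest run of identical bases between transcripts was 27 nt for Hk1-202 and Hk2-201 (71.6% identity of aligned coding bases), 26 nt for Pfkl-201 and Pfkm-201 (70.8%) and 20 nt for Slc2a1-201 and Slc2a3-201 (70.4%). Pfkp-201 shared a run of 18 nt with Pfkl-201 and of 20 nt with Pfkm-201. The authors' deposited posterior SD of the count was at most 4.11 counts for Pfkp and 0.17 counts for any other member. Which sources of uncertainty this value covers was not examined.

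Pfkfb3 (ENSMUSG00000026773.19, chr2:11471433-11554077, minus strand) encodes the PFK-2 isoenzyme with a very high kinase over phosphatase activity, and so favours the activator of phosphofructokinase-1. It stood at 25.78, 14.91 and 20.24 TPM in replicates 1, 2 and 3, from 5243, 5121 and 7117 counts. Pfkfb4 followed at 7.17, 6.86 and 7.85 TPM, then Pfkfb2 at 2.82, 2.68 and 3.16 TPM. Pfkfb1, the isoenzyme gene of liver and muscle, was under 1 TPM in every library (mean 0.677 TPM). Pfkfb3 varied 1.73 times between libraries while Pfkfb4 varied little.

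Pfkfb3 took 70.7%, 59.5% and 63.3% of the TPM of the 4 genes (mean 64.5% ± 5.71, n = 3), and it exceeded Pfkfb4 by 3.6, 2.17 and 2.58 times (log2 1.44 ± 0.369, n = 3). Its level was also above that of every phosphofructokinase-1 subunit, 2.42, 1.63 and 3.09 times that of Pfkp.

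Summed over isoenzymes, the hexokinase and phosphofructokinase-1 steps differed widely in level. Hexokinase genes summed to 191, 126 and 182 TPM in replicates 1, 2 and 3 (166 ± 35, n = 3), which ranked 2 among 11 steps from hexokinase to lactate dehydrogenase in replicates 1 and 3 and in the mean, and 4 in replicate 2. Phosphofructokinase-1 genes summed to 15.8, 13.9 and 13.1 TPM (14.2 ± 1.38, n = 3), the lowest of the 11 steps in 3 of 3 libraries. The next lowest step was 3.33, 4.09 and 4.61 times higher, and the hexokinase sum was at least 9.06 times that of phosphofructokinase-1 in each library. RNA levels say nothing here of the activity of either enzyme. The ranking counts only the genes listed for each step.

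**Figure D3:**
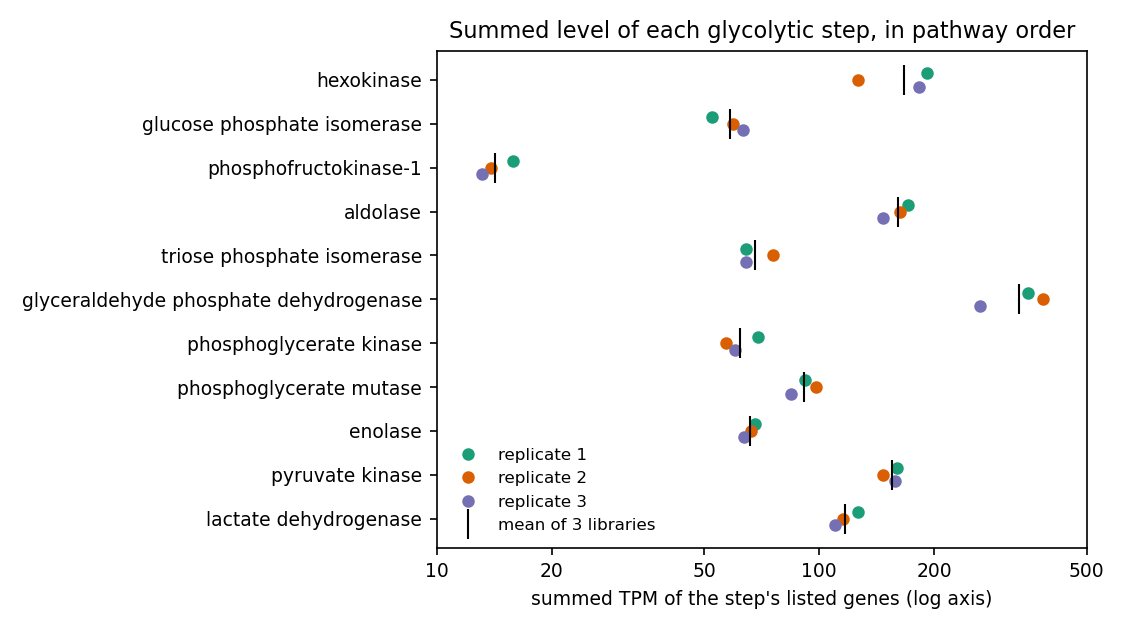
Summed TPM of the listed genes of 11 glycolytic steps on a log axis, in pathway order from top to bottom, with 1 point per library and a tick for the mean. Phosphofructokinase-1, at 13.1 to 15.8 TPM, lies to the left of every other step, and hexokinase lies at 126 to 191 TPM.

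The rest of the pathway is given from lists. The 16 genes of later glycolysis and lactate handling had a median level of 62.2 TPM. In all libraries 13 of them reached 1 TPM, and the lowest was Slc16a1, a lactate transporter gene, at 0.687 ± 0.134 TPM. All 8 pentose phosphate pathway genes passed that level (median 30.3 TPM), led by Taldo1 (52.7 ± 3.91 TPM) and Tkt (52.3 ± 1.15 TPM), as did 8 of 9 glycogen genes (median 8.08 TPM). Of the 7 genes whose products oppose these steps 3 passed. They were G6pc3, the ubiquitous glucose 6-phosphatase (5.48 ± 0.335 TPM), its substrate carrier Slc37a4 (3.05 ± 0.101 TPM) and Tigar, a fructose 2,6-bisphosphatase (2.51 ± 0.239 TPM). Fbp1, which reverses phosphofructokinase-1, had 0 counts in every library, which allows at most 0.0858 TPM.

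Of 14 regulator genes 10 passed 1 TPM in every library. Vdac2, one of the outer mitochondrial membrane channels of the family to which hexokinases 1 and 2 dock, was the highest at 74.5 ± 6.46 TPM. Txnip, whose product promotes removal of GLUT1 from the cell surface, stood at 45.21, 64.6 and 71.11 TPM. It exceeded Slc2a1 by 14.9, 38.2 and 37.6 times, and its lowest library, replicate 1, was the highest of Slc2a1. Replicate 1 was the highest library for 55.7% and the lowest for 17.4% of protein-coding genes with a mean of at least 1 TPM. A link between Txnip and Slc2a1 was not tested.

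The spread between libraries was then compared with that of other genes. The highest library was at least 1.5 times the lowest for 8 of 10 members, against 18.6% of the protein-coding genes with a mean of at least 1 TPM. After rescaling by TMM factors, which correct for differences in RNA composition, it was 6 of 10 against 16.1%. With a library left out, which compares fewer libraries by construction, the count was 1 without replicate 1 (6.96% of those coding genes), 4 without replicate 2 (10.2%) and 6 without replicate 3 (11.4%). It was 5 in the second quantification, against 30.4%, and 5 after rescaling to the protein-coding total, against 17.6%. Pfkm (1.14 times) and Pfkl (1.44 times) varied least on the deposited scale. With TMM scaling Pfkm was at 1.21 times, Hk3 at 1.35 times and Pfkl at 1.41 times.

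Replicate 2 was the lowest library for 8 of the 10 members, against 49.1% of the protein-coding genes with a mean of at least 1 TPM. With TMM scaling these became 6 members and 30.4%. The exceptions on the deposited scale were Slc2a3, lowest in replicate 1, and Pfkp, lowest in replicate 3. Malat1, a nuclear noncoding RNA, was also lowest in replicate 2, at 612, 156 and 637 TPM. Whether carry-over of nuclear RNA had a part in the levels of the members was not tested. The shares within a step do not change with the scaling of a library.

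The transcripts behind each gene were then examined, since isoenzyme genes can start at different exons and so encode different protein ends. A member's leading transcript was the same in 3 of 3 libraries for 6 of the 10 genes. It was the same in both deposited quantifications for 8 of 10. Transcript counts of this kind were not made for other genes, so they cannot be read as a trait of the members. A single transcript held at least 10% of the gene, in the mean of the first quantification, for 3 members. These were Slc2a6-201 (95.7% ± 1.56), Pfkl-201 (97.1% ± 0.924) and Slc2a1-201 (92.9% ± 5.01; n = 3 each). The second quantification gave Slc2a1-201 a smaller share, 67.8% ± 4.29, with most of the rest on Slc2a1-204, a transcript annotated as a target of nonsense-mediated decay.

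The first coding bases of Hk1, Hk2 and Hk3 are shown because the mitochondrial anchor of hexokinases 1 and 2 lies at the protein start. The genes also differ beyond this part: Hk1-202 and Hk2-201 had 71.6% identity over all aligned coding bases. Each line gives the first 60 coding bases, 5′ to 3′, of the GENCODE M21 transcript. In the first pair, capitals mark positions at which Hk1-202 (coding start at chromosome 10, base 62340075, minus strand, mm10) and Hk2-201 (chromosome 6, base 82773980, minus strand) have the same base.
Hk1-202: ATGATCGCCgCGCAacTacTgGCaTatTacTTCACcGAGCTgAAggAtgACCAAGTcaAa
Hk2-201: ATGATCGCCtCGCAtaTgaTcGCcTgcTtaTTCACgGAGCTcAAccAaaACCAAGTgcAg

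These shared 40 of 60 positions (66.7%), compared without gaps. In the next set, capitals mark the start codon. Hk1-201 begins to code at base 62358362 and Hk1-205 at base 62342560 of chromosome 10, and Hk3-201 and Hk3-208 at bases 55019423 and 55015060 of chromosome 13, all on the minus strand.
Hk1-201: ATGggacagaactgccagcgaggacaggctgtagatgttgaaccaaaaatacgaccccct
Hk1-205: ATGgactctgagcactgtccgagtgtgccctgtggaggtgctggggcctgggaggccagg
Hk3-201: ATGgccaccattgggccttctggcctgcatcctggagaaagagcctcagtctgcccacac
Hk3-208: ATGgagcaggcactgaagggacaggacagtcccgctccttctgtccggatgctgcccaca

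Against Hk1-202, Hk3-201 shared 14 of 60 positions (23.3%) and Hk1-201 also shared 14 of 60. The coding sequences of Hk1-202 and Hk1-205 differ only in their first 62 and 59 bases and then run on identically for 2692 nt. Those of Hk1-201 and Hk1-202, counted back from the end, are identical for 1723 nt up to a first difference. How much of the part before it differs was not measured.

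Hk1 was split over several starts. Hk1-202, which matched Hk2-201 at 40 of its first 60 coding positions, held 37.12%, 40.53% and 32.24% of the gene's TPM in replicates 1, 2 and 3 (36.6% ± 4.17, n = 3). Hk1-201, with the start farther upstream, held 34.3%, 37.79% and 45.94% (39.3% ± 5.97, n = 3). Which of them led changed with the library: Hk1-202 in replicates 1 and 2 and Hk1-201 in replicate 3. Hk1-201 led Hk1-202 in 3 of 3 libraries of the second quantification. Hk1-201 matched Hk1-202 at only 14 of its first 60 coding positions. The part of the Hk1 RNA on Hk1-201 therefore did not carry the start that resembles Hk2-201. Whether the encoded proteins bind mitochondria was not tested. Alternative first exons of Hk1 are known from testis and red cells. The summed erythroid markers were at most 0.13 TPM, and no testis markers were listed. The part of either cell type in the use of these starts was not tested.

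The rest of Hk1 lay on Hk1-212 (23.9% ± 3.89), an incomplete transcript of 896 nt that starts inside the gene. The second quantification gave Hk1-201 a similar share, 36.5% ± 3.21, but Hk1-202 only 20.6% ± 4.58. It placed 15.3% ± 2.95 on Hk1-205, to which the first quantification gave 0 in every library. Both quantifications thus left Hk1-202 with less than the whole of Hk1, and they differed on how much.

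Hk2 was led by its longest transcript, Hk2-201 (5513 nt), with 70.43%, 68.18% and 66.55% of the gene in the first quantification. The remainder was on Hk2-202 (31.1% ± 2.75, n = 3), a noncoding transcript of 594 nt within the 3′ end of the gene, chr6:82725062-82726309. The second quantification gave Hk2-202 0 TPM in every library and Hk2-201 96.4% ± 2.27. Hk2 was also the 1 member for which the quantifications stood at least 2-fold apart in every library, against 5.95% of protein-coding genes. At 1.5-fold it was 9 members against 88.5%, and at 3-fold no member against 0.682%.

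Part of that gap is shared by most genes: the second quantification gave protein-coding genes a lower level, at a median of 0.503, 0.549 and 0.439 times the first in replicates 1, 2 and 3. After rescaling it to the coding total of the first, no member was 2-fold apart in every library, against 1.17% of genes. Hk2 then stood at 0.732, 0.684 and 0.692 times the first quantification, and Slc2a3 at 1.52, 1.56 and 1.5 times. The mean of Slc2a3 was 1.87 TPM on that scale. All other members were within 0.942 to 1.32 times.

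**Figure D4:**
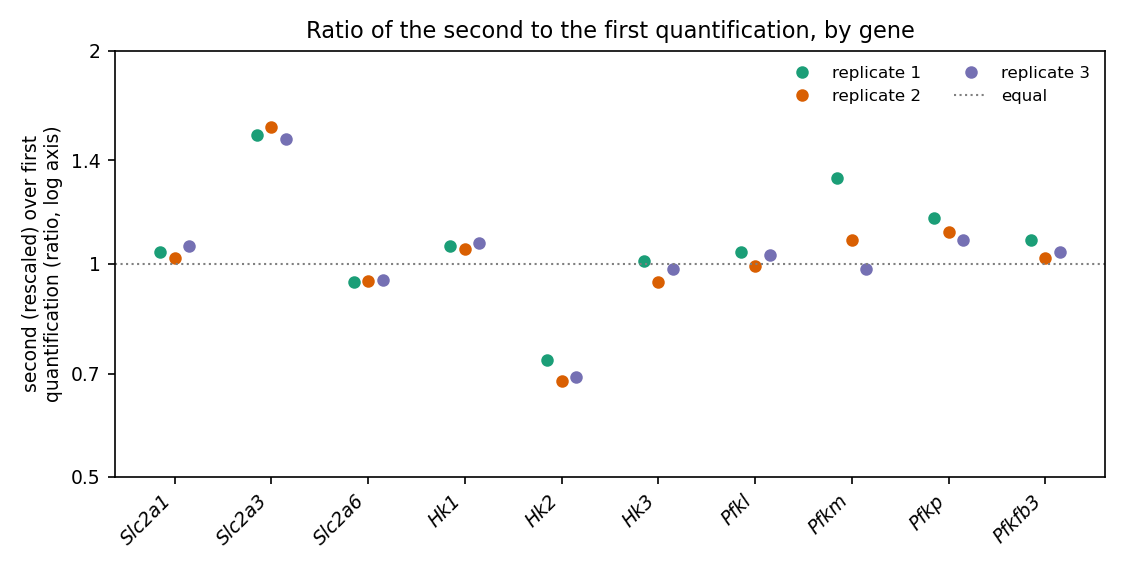
Ratio of the second to the first quantification of each gene (log axis), after rescaling the second to the coding total of the first, with 1 point per library and a dotted line at equality. Hk2 lies at 0.684 to 0.732 and Slc2a3 at 1.5 to 1.56 in all libraries, while Pfkm spreads from 0.983 to 1.32.

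Slc2a3 was itself divided between Slc2a3-201 (73.1% ± 6.13 in the first quantification) and Slc2a3-202 (26.5% ± 6.51), an incomplete transcript of 601 nt that starts far upstream. In the second quantification Slc2a3-202 led, with 54.7% ± 5.51 against 41.2% ± 3.11 (n = 3 each). The deposited counts of Slc2a3 were the fewest of the members in replicate 1.

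For Hk3 the main transcripts changed places between libraries. Hk3-201, which codes for the full-length protein (2766 coding nt), was at 68.58, 31.91 and 24.82 TPM in replicates 1, 2 and 3, or 51.57%, 36.47% and 19.97% of the gene. Hk3-208, whose 2601 coding nt lie wholly inside those of Hk3-201 and lack the first 165, was at 44.77, 35.1 and 66.36 TPM, or 33.66%, 40.12% and 53.38%. Hk3-201 led in replicate 1 and Hk3-208 in the other libraries.

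Hk3-204, a transcript with the start of Hk3-201 that is annotated as a nonsense-mediated decay target, held 7.75%, 17.08% and 21.1% of the gene. In the second quantification Hk3-201 led in 3 of 3 libraries, with 62.0%, 64.0% and 47.7%, against 21.2%, 22.6% and 37.8% for Hk3-208 and 4.38% ± 1.19 for Hk3-204. After the rescaling above, the second quantification gave the Hk3 gene 1.01, 0.942 and 0.982 times the level of the first. In both, Hk3-208 had its largest share in replicate 3.

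**Figure D5:**
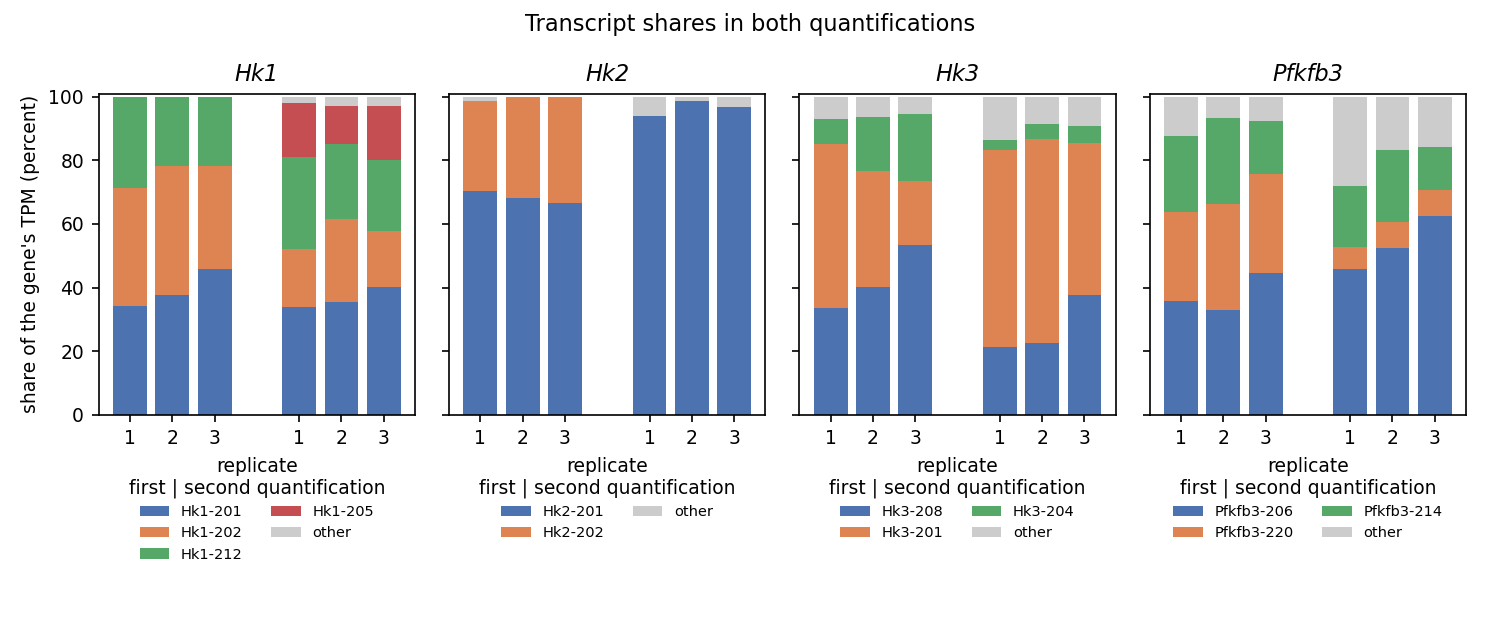
Share of the gene's TPM (vertical axis, percent) of each transcript of Hk1, Hk2, Hk3 and Pfkfb3, as stacked bars for the 3 libraries of the first (left) and the second (right) quantification. Hk2-202, at 28.08% to 33.45% in the first, is missing from the second, and Pfkfb3-220 shrinks from a mean of 30.8% to 7.74%.

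Transcripts of Pfkfb3 differ at the start and in the number of exons. The start sequences below are shown because they tell apart transcripts from the near and the far first exon. Pfkfb3-206 begins to code at base 11501700 and Pfkfb3-220 at base 11553842 of chromosome 2 (mm10, minus strand), and capitals mark the start codon. The coding sequences differ in their first 76 and 16 bases and then share 1484 nt.
Pfkfb3-206: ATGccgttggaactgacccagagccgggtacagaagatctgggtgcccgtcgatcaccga
Pfkfb3-220: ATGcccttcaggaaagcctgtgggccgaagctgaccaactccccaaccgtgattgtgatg

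The near coding start held 64.0%, 65.1% and 64.5% of the Pfkfb3 TPM in the first quantification (64.6% ± 0.552, n = 3), summed over its 11 transcripts. Pfkfb3-206 (37.8% ± 5.95) and Pfkfb3-214 (22.6% ± 5.44), with 15 and 16 exons, were its main transcripts. The far coding start held 27.9%, 33.2% and 31.6% (30.9% ± 2.69). In the second quantification the near start held 82.7% ± 5.81 and the far start 7.95% ± 0.746 (n = 3 each). The near start therefore led in 3 of 3 libraries of both, and the size of its lead depended on the quantification.

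Pfkp was divided between Pfkp-201 (53.0% ± 10.7) and Pfkp-207 (41.9% ± 11.3, n = 3 each), which share a coding start and 2352 coding nt and differ mainly in where they end. Pfkp-207 led in replicate 2 and Pfkp-201 in the others. Pfkp-201 led in every library of the second quantification, with 65.4% against 29.3% for Pfkp-207 in replicate 2. For Pfkm, Pfkm-201 led in every library with 71.65%, 85.9% and 55.21%, and every transcript of Pfkm with a level above 0 in the first quantification had the same coding start, at base 98112162 of chromosome 15. The remainder was on Pfkm-202 in replicates 1 and 2 and on Pfkm-205 in replicate 3, each at under 1 TPM. These transcripts start upstream of Pfkm-201, and their split rests on few counts.

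In the first quantification, counting only transcripts of the protein-coding class removed little for 8 of the 10 members, which kept over 90% of their TPM. The exceptions were Hk2, which kept 68.9% ± 2.74, and Hk3, which kept 80.0% ± 6.47 (n = 3 each). On that count the hexokinase shares were 66.3% for Hk3, 26.0% for Hk1 and 7.72% for Hk2, in the same order as over all transcripts. The second quantification had other exceptions: Slc2a1 kept 68.6% ± 5.56 and Hk3 86.9% ± 1.45, while Hk2 kept 100%. How many other genes keep over 90% of their TPM was not computed.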

How the data were processed

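Total RNA of the cytosolic fraction was sequenced in 3 libraries of 1 group, per the labels, from 1 µg of RNA with a size range of 250 to 400. The authors made all tables on mm10, per the labels. The sources used here do not name the programs, their versions or the strand setting. Each library has a gene table of expected counts (estimated, not always whole), deposited by the authors with TPM and, per transcript, the percent of the gene's TPM. This is the first quantification. The second, deposited as estimated counts and TPM per transcript, was summed per gene here. The deposited TPM sums to the same total in each library.

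All 55536 gene identifiers matched GENCODE M21, which gave symbols, classes and coordinates (1-based). The 0.239% to 0.487% of counts on other entries were left out. Members matched by symbol and identifier, 10 of 10. Means, SDs, shares and ratios were computed with Python 3.11.15 and pandas 2.3.3, and TMM factors with edgeR 4.0.16 in R 4.3.3, for scaling only. Genes were counted as present from 1 TPM in every library. No test between groups was possible. Named genes were the members, step genes at 1 TPM or more in every library, the ends of each list, and transcripts at 10% or more of a gene. Names beyond this were chosen after their values were seen. The members and lists were chosen with earlier results of these data known. The 1.5-fold call between libraries and the shares within a step were tried on simulated counts, and the other calculations were not. Coding sequences came from GENCODE M21 transcripts, and identity from a global alignment with Biopython 1.88. Alternatives covered the quantification, unit, scaling, thresholds, pseudocounts and each replicate left out. A listed gene of the hexokinase step is not reported here.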

Additional observations from a re-analysis of the deposited data

How the results depend on the processing

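No alternative tried turned the order of the leading and the next gene of any step. The second quantification did turn that of some other pairs of members. In 28 of 32 recomputed log2 ratios the value moved by less than 1 SD, and none changed sign. Part of this was fixed in advance. With n = 3, leaving out a replicate cannot move a mean by 1 SD. Neither that nor a pseudocount can change the sign where the leader is higher in 3 of 3 libraries. The 4 ratios that moved did so in the second quantification, on expected counts or with protein-coding transcripts only. The log2 ratio of Hk3 over Hk1, 1.67 with a narrow SD, became 1.56 in the second quantification, 1.53 on expected counts and 1.35 with protein-coding transcripts only, and the share of Hk3 became 65.4% on expected counts and 66.3% with protein-coding transcripts only. On expected counts, which are not corrected for length, the share of Pfkfb3 was 73.4% and its log2 ratio over Pfkfb4 1.95. Leaving out each replicate gave log2 ratios of 2.32 to 2.96 for Slc2a6 over Slc2a9, 1.66 to 1.7 for Hk3 over Hk1, 0.932 to 1.48 for Pfkp over Pfkl and 1.24 to 1.61 for Pfkfb3 over Pfkfb4, and shares of 69.6% to 77.4%, 68.7% to 69.5%, 58.0% to 66.6% and 61.4% to 67.0% for the leaders in that order. It gave 9 to 10 members at 1 TPM, and the second quantification and a threshold of 2 TPM gave 7 each. The number of members whose highest library was at least 1.5 times the lowest ranged from 1 to 6 without a replicate, and was 5 in the second quantification (30.4% of coding genes) and 5 after rescaling to protein-coding genes (17.6%). The members whose quantifications differed numbered 9 at 1.5-fold (88.5% of coding genes), 0 at 3-fold and 0 at 2-fold after rescaling, a scaling chosen after seeing the data, as was that by library for the lowest replicate. Levels stayed within 1 SD for all 10 members under both rescalings of TPM, which were set back to the average size of the deposited TPM. They also did without each replicate, but with n = 3 a mean cannot move by 1 SD in that way. These results therefore do not measure stability. For 9 of 10 members the level moved in the second quantification as deposited, and for 3 of 10 after rescaling it. As deposited, 99.3% of coding genes at 1 TPM or more were lower there in every library. The cause was not tested. Depth limits Slc2a3 and Pfkm most. No paired analysis was possible because there is 1 group.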
